A study of Homo sapiens with 6 samples.

Results

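The genes described here are 44 interferon response genes, taken by symbol from general knowledge and matched to the count tables through their NCBI Gene identifiers. All 44 were found among the 25702 identifiers of each table. The RNA came from K562 cells, an erythroid line established from a patient with chronic myeloid leukaemia, 2 libraries for each of 3 groups. The cells carried pCMV-HA plasmid that was empty (EV), encoded MXD3, a repressor that opposes MYC, or encoded the leukaemia fusion STIM1::MXD3, which keeps the DNA-binding part of MXD3. The comparisons asked which genes either protein changed against EV, and where the fusion and MXD3 differed. Every group, EV included, received plasmid DNA by nucleofection, and untransfected cells were not analysed here. No sorting of transfected cells is described for these RNA samples, so each library can hold cells with and without the plasmid. The labels give no interferon or other treatment, and the study describes the libraries of a group as independent transfections.

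Interferons are secreted proteins that bind cell surface receptors and, through the JAK1 and TYK2 kinases, switch on STAT proteins. With type I interferon, STAT2 and IRF9 form part of a complex that binds the interferon-stimulated response element in promoters, while gamma interferon acts through a shorter element, the gamma-activated site, to which IRF1 owes much of its induction. The target genes encode sensors of foreign RNA, antiviral effectors and the machinery that shows peptides to T cells, and nucleic acid that enters the cytosol can start the pathway.

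The promoters were searched for letters of the elements named above. The genes were listed for their interferon response, so the shares that hold such letters describe the list and do not test it. A RefSeq promoter sequence (GRCh38.p14) was at hand for 36 of the 44 genes and was missing for DHX58, IFIT2, IFITM2, IRF7, MX2, OAS2, OASL and USP18. In the 250 bases before the start of transcription, the letters GAAANNGAAA, or TTTCNNTTTC on the other strand, were present for 22 of the 36 genes (61.1%) and for 3.71% of 27305 genes. The letters TTCNNNGAA, which read the same on both strands, were present for 11 of the 36 (30.6%) and for 8.09% of all genes. Overlapping matches were allowed, and the motifs can overlap each other. The stretches below come from genes whose levels ran from 527 to 0 counts-per-million (CPM), each read 5′ to 3′ on the strand of its gene, with the matches in capitals. The first 7 are marked for GAAANNGAAA in either orientation and the last, from IRF1, for TTCNNNGAA.
B2M: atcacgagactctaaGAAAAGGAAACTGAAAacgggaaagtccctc
IFITM1: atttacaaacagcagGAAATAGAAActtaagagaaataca
IFITM3: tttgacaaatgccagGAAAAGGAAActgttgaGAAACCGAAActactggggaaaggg
BST2: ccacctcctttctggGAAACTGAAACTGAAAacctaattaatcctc
ISG15: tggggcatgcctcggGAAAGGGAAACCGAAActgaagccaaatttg
IFIT1: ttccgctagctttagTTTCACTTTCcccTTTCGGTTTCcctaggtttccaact
IFI44L: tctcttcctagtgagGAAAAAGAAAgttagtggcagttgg
IRF1: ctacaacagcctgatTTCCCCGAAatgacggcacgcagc

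On GRCh38.p14 these stretches lie at chr15:44711358-44711403 (B2M, plus strand), chr11:313985-314024 (IFITM1, plus), chr11:320871-320927 (IFITM3, minus) and chr19:17405730-17405775 (BST2, minus). ISG15 is at chr1:1013369-1013414 (plus), IFIT1 at chr10:89392492-89392544 (plus), IFI44L at chr1:78620360-78620399 (plus) and IRF1 at chr5:132490874-132490912 (minus). In B2M, BST2 and ISG15 the 2 matches overlap, and IFI44L has a further match, not shown, that begins 164 bases before its start. Genes with GAAANNGAAA had mean levels from 0 to 527 CPM with a median of 2.64, and the 14 genes with a promoter sequence but without it ran from 0 to 230 CPM with a median of 5.32. These CPM are not divided by transcript length. Both sets hold genes of a chromosome 6 stretch, described below, whose low counts are not read as absent RNA. They are TAP1 with the motif and HLA-B, HLA-C, PSMB8 and PSMB9 without it. The motif was found before the start of strongly counted genes, such as B2M, and of uncounted genes outside that stretch, such as IFI44 and IFI44L. A match is a description of the letters and not a measured binding site.

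Library totals were between 53048343 and 63835779 counts, and the 44 genes held 0.184% to 0.192% of them. Levels are given as CPM scaled by the trimmed mean of M-values (TMM), with values in the order of replicates 1 and 2. A library with no count of a gene allows up to 3 counts, or 0.047 to 0.0566 CPM, and these limits cover counting error only. All 9 markers of K562 cells, among them GATA1 and the embryonic and fetal globins, were between 145 and 4697 CPM. Of 14 markers of T cells, B cells, monocytes, plasmacytoid dendritic cells and fibroblasts, the T cell gene CD3D was highest at 13.4 to 19.8 CPM, CD3E and CD2 of the same list stayed at or under 0.70 CPM, and the other lists did not exceed 2.83 CPM.

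In these cells the levels of interferon response genes ran from several genes above 100 CPM, among them B2M, IFITM1 and IFITM3, to genes with no count, such as IFI44L and OAS2. Of the 44 genes, 32 (72.7%) had enough counts to be tested, against 60.0% of all identifiers. Their mean level was at least 100 CPM for 5 genes, from 10 to 100 CPM for 9, from 1 to 10 CPM for 14 and under 1 CPM for 4. B2M alone held 25.8% to 31.1% of the counts on the 44 genes, and B2M, IFITM1 and ADAR together 55.4% to 57.2%. Since genes differ in length, levels of different genes are compared as RPKM, which are CPM divided by the transcript length in kilobases. On that scale B2M was highest with 559 ± 66.6 (SD, n = 6), followed by IFITM1 with 444 ± 24.8 and IFITM3 with 217 ± 55.1, and ADAR, although behind only B2M and IFITM1 by CPM, was at 34.8. The 3 highest genes did not overlap in RPKM over the 6 libraries.

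**Figure D1:**
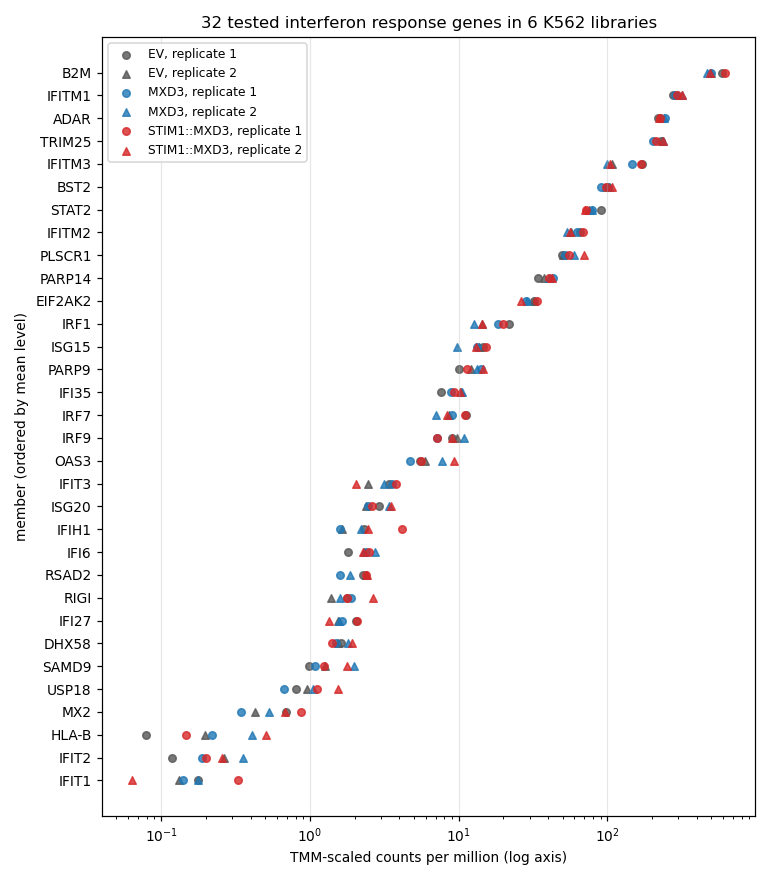
Level of each of the 32 tested interferon response genes in the 6 K562 libraries, in TMM-scaled CPM on a log axis, with colour for the plasmid and symbol for the replicate number. Levels run from about 0.1 CPM for IFIT1 and IFIT2 to over 100 CPM for B2M and IFITM1, and for most genes the libraries of the 3 plasmids lie among each other.

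Among the membrane and entry genes, the IFITM proteins hinder the fusion of viruses with the membranes of the cell. IFITM1 was at 275 and 297 CPM in EV, 284 and 316 in MXD3 and 293 and 316 in STIM1::MXD3. IFITM3 was at 172 and 107 CPM in EV, 146 and 99.3 in MXD3 and 169.5 and 103 in STIM1::MXD3. IFITM2 was at 65.4 and 57.3 CPM in EV, 62.4 and 53.6 in MXD3 and 68.5 and 56.3 in STIM1::MXD3. In every group replicate 1 was the higher library for IFITM3 and IFITM2 and the lower for IFITM1. The 3 IFITM genes are near-identical neighbours, so reads may have been split between them by the counting. BST2, or tetherin, which holds budding virus at the cell surface, was at 100 and 98.2 CPM in EV, 90.7 and 102 in MXD3 and 98.6 and 107 in STIM1::MXD3. PLSCR1, a membrane protein with antiviral activity, was at 49.9 and 50.6 CPM in EV, 52.1 and 59.3 in MXD3 and 55.0 and 70.0 in STIM1::MXD3. For PLSCR1 both EV libraries lay under the 4 others, while the groups overlapped for BST2. RSAD2, or viperin, an antiviral enzyme, was at 2.26 and 2.38 CPM in EV, 1.60 and 1.85 in MXD3 and 2.37 and 2.40 in STIM1::MXD3, with both MXD3 libraries the lowest.

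Of the signalling genes, STAT2 was at 90.4 and 75.6 CPM in EV, 78.9 and 78.4 in MXD3 and 72.4 and 71.2 in STIM1::MXD3. IRF9, its partner, was at 8.95 and 9.73 CPM in EV, 7.13 and 10.8 in MXD3 and 7.13 and 9.03 in STIM1::MXD3. The 2 STIM1::MXD3 libraries were the lowest for STAT2, and the groups overlapped for IRF9. IRF1, a transcription factor induced by gamma interferon, was at 21.7 and 14.4 CPM in EV, 18.4 and 12.7 in MXD3 and 20.01 and 14.3 in STIM1::MXD3. IRF7, the regulator that amplifies interferon production, was at 11.2 and 8.62 CPM in EV, 8.96 and 7.08 in MXD3 and 11.0 and 8.41 in STIM1::MXD3. Both factors were higher in replicate 1 of each group. An antisense gene overlaps 22.9% of the IRF1 exon length, and a gene on the same strand overlaps 23.9% of that of IRF9, 21.1% of that of IFITM1 and 43.2% of that of RIGI. IFI6 and HLA-B also overlap a gene on the same strand, by 23.1% and 30.7%. These are shares of exon length and not of reads. How far they touch the counts is not known, because the annotation and the use of strand in counting were not stated.

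TRIM25, a ubiquitin ligase that assists the RNA sensor RIGI, was at 228 and 232 CPM in EV, 203 and 236 in MXD3 and 213 and 238 in STIM1::MXD3. The sensor genes themselves were low. IFIH1, which encodes the sensor MDA5, was at 2.32 and 1.65 CPM in EV, 1.60 and 2.21 in MXD3 and 4.14 and 2.46 in STIM1::MXD3. Both fusion libraries were above the 4 others, by a narrow margin in replicate 2. RIGI and DHX58 had means of 1.84 and 1.63 CPM with overlapping groups.

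ADAR edits double-stranded RNA and was at 218 and 231 CPM in EV, 244 and 239 in MXD3 and 228 and 221 in STIM1::MXD3. EIF2AK2 encodes PKR, the kinase that halts translation when it meets double-stranded RNA, and was at 32.1 and 32.2 CPM in EV, 28.5 and 29.0 in MXD3 and 33.5 and 26.1 in STIM1::MXD3. OAS3, an enzyme that activates RNase L, was at 5.52 and 5.95 CPM in EV, 4.70 and 7.69 in MXD3 and 5.55 and 9.35 in STIM1::MXD3. The MXD3 libraries were the highest for ADAR, the fusion libraries spanned the range of EIF2AK2, and replicate 2 was the higher library of each group for OAS3. Its relatives were hardly counted, with OAS1 at 4 counts in 1 library and 0 in the others, OASL at 0 to 8 counts and OAS2 at 0 in all 6. ISG20, a nuclease, had a mean of 2.89 CPM.

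ISG15, a ubiquitin-like protein that is attached to other proteins in the response, was at 14.5 and 13.6 CPM in EV, 13.2 and 9.79 in MXD3 and 15.2 and 13.1 in STIM1::MXD3. Both MXD3 libraries were below both EV libraries, and MXD3 overlapped the fusion. USP18, which removes ISG15 again and dampens the receptor, had a mean of 1.02 CPM. PARP14, an ADP-ribosyltransferase, was at 34.3 and 37.3 CPM in EV, 42.9 and 40.7 in MXD3 and 40.8 and 42.6 in STIM1::MXD3. PARP9, of the same family, was at 10.01 and 12.2 CPM in EV, 14.2 and 13.3 in MXD3 and 11.4 and 14.7 in STIM1::MXD3. Both EV libraries were the lowest for PARP14, and for PARP9 EV lay below MXD3 but overlapped the fusion. IFI35, IFI6, IFI27 and SAMD9 had means of 9.47, 2.33, 1.70 and 1.39 CPM.

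The IFIT and MX genes were mostly at the low end. IFIT1 and IFIT2, which bind foreign RNA, had means of 0.170 and 0.230 CPM, and IFIT3 of 3.06 CPM. MX2, an antiviral protein, was at 0.687 and 0.429 CPM in EV, 0.342 and 0.534 in MXD3 and 0.876 and 0.684 in STIM1::MXD3. Its relative MX1 had 0 to 10 counts, IFIT5 had 0 to 6 and XAF1, a promoter of apoptosis, had 0 to 14. IFI44 and IFI44L had no count in any library. Altogether 12 of the 44 genes failed the count filter, 5 with at most 14 counts in a library and 7 at 0 throughout.

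The antigen presentation genes fell into 2 parts by position. B2M, the light chain of HLA class I molecules, lies on chromosome 15 (GRCh37 positions 45003556 to 45011049) and was at 589 and 495 CPM in EV, 499 and 469 in MXD3 and 623 and 487 in STIM1::MXD3. HLA-C, TAP1, PSMB8 and PSMB9, the heavy chain, the peptide transporter and the proteasome subunits, were listed at 0 in all 6 libraries, and HLA-B had 4 and 12 counts in EV, 14 and 23 in MXD3 and 8 and 32 in STIM1::MXD3. These 5 genes lie in a stretch of chromosome 6 from TRIM27 to DAXX (GRCh37 positions 28870779 to 33290793), whose ends were set after the values were seen. Of its 156 protein-coding genes, 68 were at 0, 11 (7.05%) reached a mean of 1 CPM and none a mean of 10 CPM, here without TMM scaling. BRD2 was highest with a mean of 9.14 CPM, from 3.24 to 27.4 CPM in single libraries. A mean of at least 1 CPM was reached by 55.4% of the genes in the 5 Mb before it, 67.7% of those in the 5 Mb after it and 60.2% of all other genes. Genes that every cell uses were hardly counted there as well. RPS18, a ribosomal protein gene inside the stretch, had 27 to 69 counts, and RPS10, another one outside it, had 51430 to 68982. The zeros of these HLA, TAP1 and PSMB genes are therefore given as listed, without reading them as absent RNA. HLA-B passed the count filter and stays among the 32 tested genes in the counts, rankings and medians below. The size of its fold changes is not described. What lowers the counts in this stretch was not tested.

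**Figure D2:**
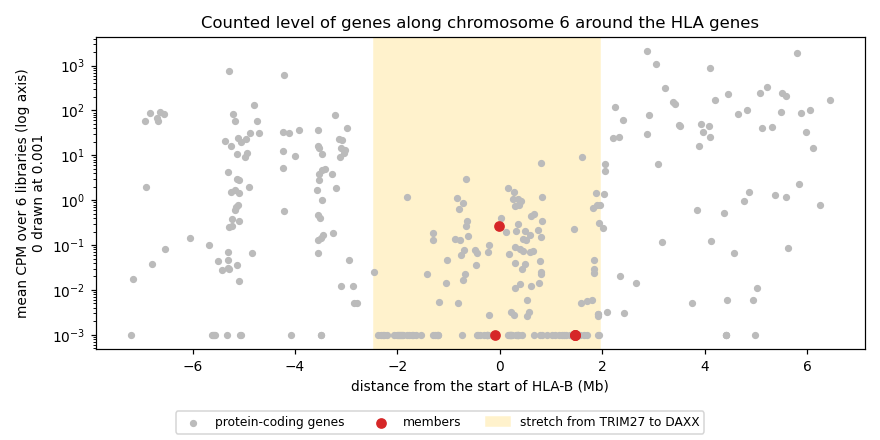
Mean CPM over the 6 libraries (log axis, 0 drawn at 0.001) of protein-coding genes on chromosome 6 against their distance from the start of HLA-B in Mb, with the interferon response genes in red and the stretch from TRIM27 to DAXX shaded. Inside the shading no gene reaches a mean of 10 CPM, without TMM scaling, and the 5 red genes, 3 of which lie close together to the right, are at 0 or under 1 CPM, whereas genes on both sides reach well over 10 CPM.

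The pathway above these genes was represented by its receptors and kinases but not by its ligands. Of 23 further pathway genes, 16 were tested. IFNA1, IFNB1, IFNG and IFNL1, ligands of the type I, II and III receptors, had no count in any library. Neither had the receptor chain IFNLR1 or the sensors TLR3 and ZBP1. The DNA sensor CGAS had 0 to 18 counts, and STING1, which acts below it, was at 77.1 to 96.6 CPM. The receptor chains of type I interferon were at 69.4 to 80.0 CPM (IFNAR1) and 19.8 to 25.5 CPM (IFNAR2). Those of gamma interferon were at 29.6 to 44.7 CPM (IFNGR1) and 35.1 to 42.0 CPM (IFNGR2). The kinases JAK1 and TYK2, which start the signal at the receptors, were at 137 to 167 and 75.6 to 106 CPM. None of the 16 genes passed the test between any pair of plasmids. Of all genes, 0.00648% passed for STIM1::MXD3 against EV, 0.00648% for MXD3 against EV and 0% for STIM1::MXD3 against MXD3. The lack of calls is thus near the background.

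Neither MXD3 nor STIM1::MXD3 detectably changed an interferon response gene against EV, and none was detected as different between them. By the quasi-likelihood F test of edgeR with Benjamini-Hochberg adjustment over 15431 genes, 0 of the 32 tested genes passed the threshold of 0.05 for STIM1::MXD3 against EV, where 0.00648% of all genes did. The count was also 0 of 32 for MXD3 against EV (0.00648% of all genes) and for STIM1::MXD3 against MXD3 (0% of all genes). At an unadjusted p under 0.05 there were again 0 of 32 in each comparison, against 0.953%, 1.86% and 1.01% of all genes in the same order. DESeq2 also called 0 of 32 each time, against 0.0194%, 0.0194% and 0.00648% of all genes. The comparisons that share EV or MXD3 libraries are not independent of each other, and with bulk RNA fewer cells of a kind and less RNA per cell cannot be told apart.

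With the replicate number as a block, edgeR still called 0 of 32 in each comparison, against 0.0194% of all genes for STIM1::MXD3 against EV, 0.292% for MXD3 against EV and 0.00648% for the fusion against MXD3. DESeq2 with the block called 0 of 32 as well, against 0.123%, 1.54% and 0.0324% of all genes. The number at an unadjusted p under 0.05 rose under the edgeR block, which takes the difference between replicate numbers out of the spread. It reached 4 of 32 for STIM1::MXD3 against EV, where 8.50% of all genes did, with PLSCR1, IFIH1 and PARP14 higher and STAT2 lower. It was 1 of 32 for MXD3 against EV (PARP14, higher), against 13.9% of all genes, and 2 of 32 for the fusion against MXD3 (B2M and IFIH1, higher), against 6.49% of all genes.

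The genes with the smallest p for STIM1::MXD3 against EV were PLSCR1, IFIH1 and PARP14 on the higher side and STAT2, IRF9 and EIF2AK2 on the lower. PLSCR1 was higher by 0.31 ± 0.16 (log2 fold change ± SE, here and below; edgeR unadjusted p = 0.0845), by 0.14 in the first replicates and 0.47 in the second. IFIH1 was higher by 0.73 ± 0.37 (edgeR unadjusted p = 0.0904), and its 95% interval ran from -0.15 to 1.62. PARP14 was higher by 0.22 ± 0.13 in the fusion, and STAT2 differed by -0.21 ± 0.13. Each of these 4 had the same direction in both replicate pairs, with groups that did not overlap. This adds no support, since the genes were picked by p from the same libraries. Groups did not overlap for 5 of the 32 genes, against 22.0% of all genes. The size of the difference depended on single libraries for 3 of the 4. PLSCR1 was at 0.12 without STIM1::MXD3 replicate 2 and 0.48 without replicate 1, IFIH1 at 0.32 without STIM1::MXD3 replicate 1 and 1.06 without replicate 2, and STAT2 at -0.07 without EV replicate 1 and -0.33 without replicate 2. EIF2AK2 differed by -0.11 ± 0.16 and changed sign between the pairs, and IRF9 differed by -0.21 ± 0.25, from -0.05 without STIM1::MXD3 replicate 1 to -0.40 without replicate 2. All 6 had an adjusted p of 1 by edgeR without the block. With the replicate block PLSCR1 had the smallest, with an edgeR unadjusted p of 0.00794 and an adjusted p of 0.476.

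For MXD3 against EV the smallest p values belonged to PARP14, PARP9 and the barely counted HLA-B on the higher side and to RSAD2, ISG15 and IRF7 on the lower. PARP14 differed by 0.22 ± 0.13, nearly as in the fusion, and PARP9 by 0.31 ± 0.20. RSAD2 differed by -0.43 ± 0.28, ISG15 by -0.29 ± 0.20 and IRF7 by -0.30 ± 0.24. With EV replicate 1 left out PARP9 was at 0.17 and IRF7 at -0.10, and with EV replicate 2 left out at 0.46 and -0.48, while ISG15 was at -0.10 without MXD3 replicate 2 and -0.51 without MXD3 replicate 1. None approached the threshold, with an adjusted p of 0.999 by edgeR without the block for each. With the replicate block the smallest adjusted p by edgeR was 0.347, for PARP14. For IRF7 the groups overlapped, because replicate 1 of MXD3 exceeded replicate 2 of EV.

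For STIM1::MXD3 against MXD3, IFIH1, RSAD2 and MX2 had the smallest p on the higher side. IFIH1 differed by 0.79 ± 0.37 (edgeR unadjusted p = 0.0719), by 1.35 in the first replicates and 0.16 in the second. RSAD2 differed by 0.47 ± 0.28, and MX2, at under 1 CPM, by 0.83 ± 0.51 (0.53 without MXD3 replicate 1). Their replicate pairs agreed in sign, which adds no support, since these genes were picked by p from the same libraries. IFIH1 rested largely on 1 library, replicate 1 of STIM1::MXD3, without which its difference was 0.37. On the lower side STAT2 differed by -0.13 ± 0.13, ADAR by -0.11 ± 0.11 and IRF9 by -0.15 ± 0.25. All had an adjusted p of 1.00 by edgeR without the block. With the replicate block the smallest adjusted p by edgeR was 0.706, for IFIH1.

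Over the list, the median log2 fold change of the 32 tested genes was 0.076 for STIM1::MXD3 against EV, with 23 genes higher. Over all genes the median was 0.0096, with 52.1% higher. In the first replicate pair the median of the 32 genes was 0.068 and in the second 0.0047. For MXD3 against EV it was 0.0020, with 16 genes higher, against 0.0011 and 50.2% higher over all genes. It changed sign between the pairs, from -0.15 to 0.13. For STIM1::MXD3 against MXD3 it was 0.077, with 23 genes higher, against 0.0083 and 52.1% higher over all genes. In the pairs it was 0.11 and 0.063. Whether these counts of higher genes differ from all genes was not tested.

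Libraries of 1 group lay entirely above or below those of the other for 5 of the 32 genes in STIM1::MXD3 against EV, where 22.0% of all genes did. For MXD3 against EV there were 9 of 32, against 31.0% of all genes, and for STIM1::MXD3 against MXD3 there were 6 of 32, against 21.1%. The pairs disagreed in sign for 16, 12 and 14 of the 32 genes in the same order. The 95% intervals show what size of change the libraries leave possible. They stayed within a 2-fold change in either direction for 23, 24 and 21 of the 32 genes, and for 17, 18 and 17 of the 18 genes with a mean of at least 5 CPM. Within a 1.5-fold change they stayed for 10, 10 and 12 of the 32 genes. These are intervals of the fit without the block. With the replicate block they stayed within 2-fold for 24, 26 and 24 genes and within 1.5-fold for 18, 15 and 15, and the interval did not include 0 for the 4, 1 and 2 genes named above at an unadjusted p under 0.05.

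**Figure D3:**
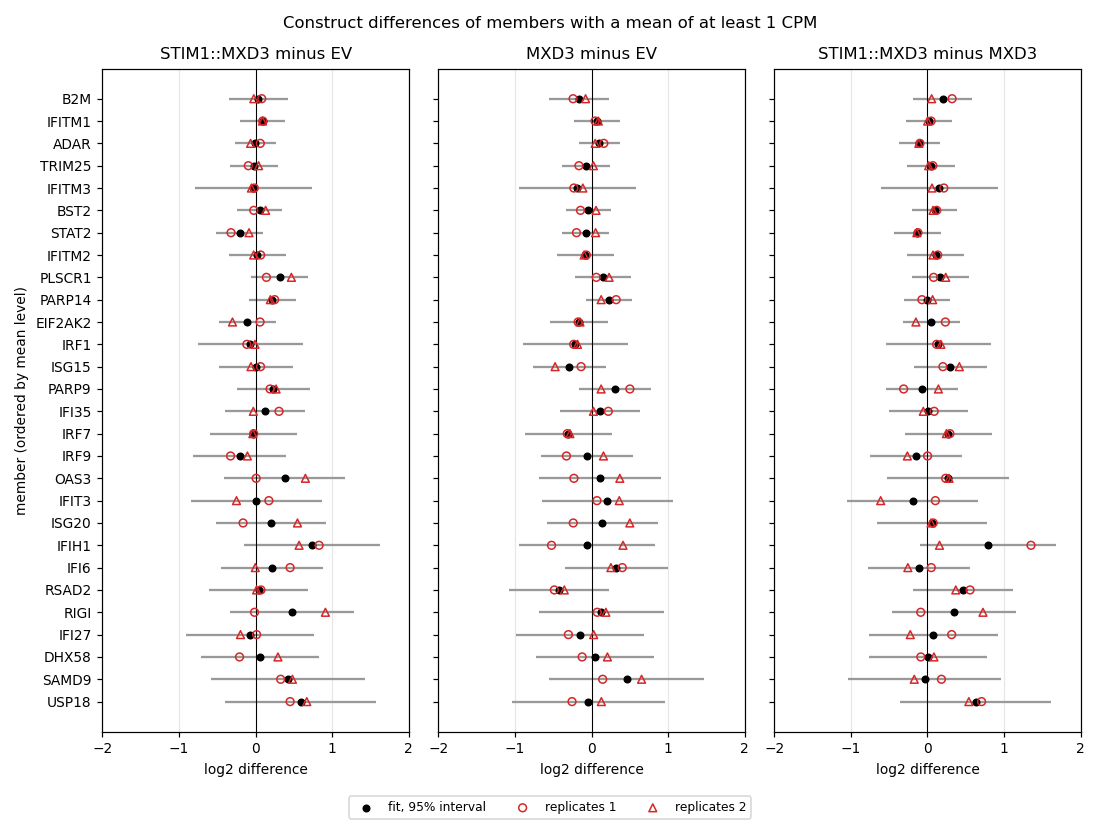
Log2 differences between plasmids for the 28 tested genes with a mean of at least 1 CPM, with the edgeR estimate and its 95% interval in black and the ratio within each replicate pair as open red symbols. Every interval, from the fit without the replicate block, includes 0, and the intervals widen towards the lower genes, which stand at the bottom.

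Between the replicate numbers several of these genes passed the test. In a model with group and replicate number, 6 of the 32 tested genes (18.8%) passed the threshold between replicates 2 and 1, where 29.2% of all genes did. Over genes with a mean of at least 5 CPM it was 9 of 18, 5 higher and 4 lower, against 39.4% of all such genes. Whether the share of these genes differs from that of all genes was not tested. Lower in replicate 2 were 5 of 32, against 16.1% of all genes, and higher was 1 of 32, against 13.1%. IFITM3 was at 162 ± 14.1 CPM (SD, n = 3) in the replicates 1 and 103 ± 4.06 in the replicates 2, and fell by 0.65 ± 0.07 on the log2 scale (edgeR adjusted p = 1.35e-05). IRF1 was at 20.03 ± 1.62 and 13.8 ± 0.968 CPM and fell by 0.54 ± 0.11 (edgeR adjusted p = 0.00143). For both genes the 3 libraries of replicate 1 lay above the 3 of replicate 2. They were named because they passed the test, and the share of all genes so separated was not counted. The log2 ratio within a group was between -0.71 and -0.56 for IFITM3 and between -0.59 and -0.48 for IRF1. Markers of the K562 cells moved with them. Of the 9 markers, 7 were called lower in replicate 2 by edgeR and none higher (4 lower with library totals), with HBZ at -0.90 and HBG1 at -0.76 on the log2 scale, and their summed level was 8610 to 9718 CPM in the replicates 1 and 6943 to 7801 in the replicates 2. Of 9 tested markers of other cell types only DCN, at under 1 CPM, was called. The part of these markers in the result was not tested.

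IRF7 fell by 0.37 ± 0.13 (edgeR adjusted p = 0.0428), B2M by 0.23 ± 0.07 (0.0218) and IFITM2 by 0.23 ± 0.07 (0.0284). OAS3 rose by 0.53 ± 0.16 (edgeR adjusted p = 0.0215), from 5.25 ± 0.480 to 7.66 ± 1.70 CPM. These 4 calls were less stable than those of IFITM3 and IRF1, which passed in all 11 alternatives. Over the alternatives the adjusted p by edgeR or DESeq2 ran from 0.0440 to 0.164 for IRF7, from 0.0125 to 0.177 for B2M, from 0.0247 to 0.150 for IFITM2 and from 0.000512 to 0.148 for OAS3. OAS3 lost its call when any library of MXD3 or STIM1::MXD3 was left out, IFITM2 and IRF7 when any library was, and B2M when any library of EV or STIM1::MXD3 was. With libraries scaled by their totals in place of TMM, 5 of 32 were higher, against 17.1% of all genes, and 2 of 32 lower, against 10.6%. The 2 lower ones were IFITM3 and IRF1, and the 5 higher ones were OAS3, IFITM1, TRIM25, IRF9 and PLSCR1, so B2M, IFITM2 and IRF7 were called lower under TMM scaling and not under totals. The same sign in all 3 groups was seen for 20 of the 32 genes (62.5%), against 58.8% of all genes.

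Of the 16 other pathway genes tested, 5 passed the test between the replicate numbers, 3 higher and 2 lower in replicate 2, against 13.1% and 16.1% of all genes, so the count is near the background. SOCS1, a feedback inhibitor of the JAK kinases, was at 34.8 and 15.2 CPM in EV, 28.3 and 15.5 in MXD3 and 31.7 and 17.5 in STIM1::MXD3, and fell by 0.97 ± 0.10 (edgeR adjusted p = 1.3e-05). SOCS3, a relative that acts mainly on other cytokine receptors, was at 10.7 and 19.3 CPM in EV, 11.3 and 25.7 in MXD3 and 9.08 and 29.3 in STIM1::MXD3, and rose by 1.24 ± 0.14 (edgeR adjusted p = 2.15e-05). For both inhibitors the replicates 1 and 2 did not overlap. They were named because they passed the test, and the share of all genes so separated was not counted. IFNGR1, the gamma interferon receptor chain that binds the ligand, fell by 0.44 ± 0.09 (edgeR adjusted p = 0.00144). MAVS, the adaptor below RIGI and MDA5, rose by 0.32 ± 0.07 and IRF3, the factor it activates, by 0.32 ± 0.09 (edgeR adjusted p = 0.00353 and 0.0137). The ligand genes looked up were without counts in both replicates. What the replicate numbers stand for is not given in the labels, and what separates them was not tested.

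**Figure D4:**
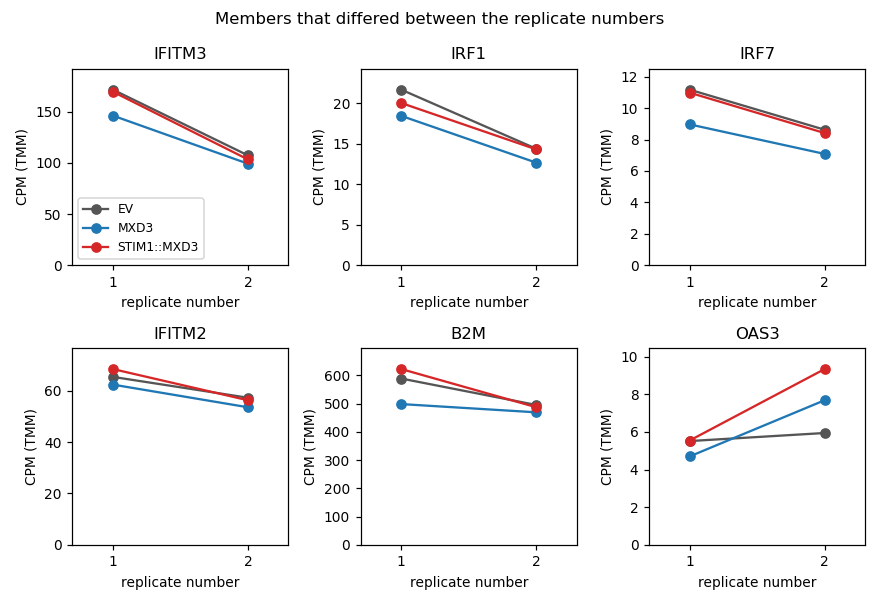
TMM-scaled CPM of the 6 interferon response genes that passed the test between the replicate numbers, with 1 line per plasmid from its replicate 1 to its replicate 2 and axes that start at 0. IFITM3, IRF1, IRF7, IFITM2 and B2M are lower in replicate 2 for each plasmid and OAS3 is higher, by least in EV.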

How the data were processed

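Poly A RNA libraries of 6 K562 samples were analysed. The authors deposited raw counts per gene for each library, listed under NCBI Gene identifiers and not normalised. The submitters' processing notes name HISAT2 2.2.1, featureCounts 2.0.1 and the hg19 build. The annotation, the use of strand and the counting of read pairs are not given in the sources used here. Among counts of 1 to 39, 59.8% to 67.3% were even, so counts were also halved.

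Identifiers were matched to symbols for 92.2% of 25702. Groups and replicate numbers came from the titles. Genes were kept by filterByExpr (15431 genes), scaled with TMM and tested with the two-sided quasi-likelihood F test of edgeR 4.0.16 (R 4.3.3, 1 coefficient per group, all 6 libraries), with Benjamini-Hochberg adjustment over all genes tested. DESeq2 1.42.0 was an alternative. SE is the absolute log2 fold change divided by the root of F, and intervals use the t quantile. Log2 CPM carried a prior count of 2, and RPKM uses the length of 1 canonical transcript per gene (GRCh37). The scripts were tested on simulated counts. Total counts of 53048343 to 63835779 per library make counting error small except for genes of a few counts.

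The groups share the replicate numbers 1 and 2. Across all genes tested, how far a library lay from its group mean correlated between libraries of the same number (r = 0.270, 0.364 and 0.450 for the 3 pairs of groups), so the numbers were taken as pairs, from the data and not from the labels. In the plasmid comparisons without the block, p-values measure the spread between 2 libraries per group. That spread includes the difference between the replicate numbers, although the numbers were taken as pairs. These main tests are therefore conservative and can miss differences between plasmids. The fits with the block and the test between the replicate numbers use the spread left after group and number are fitted.

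Values in every library were given for genes past the threshold in any comparison, for up to 3 genes per direction with the smallest p in each comparison, and for the 10 highest genes by CPM or RPKM. Of the pathway genes, ligands, receptors and those past the threshold were named. The kinases JAK1 and TYK2, and TLR3, ZBP1, CGAS and STING1, were named outside this rule. The 44 genes, the other lists and the tests were chosen with earlier results of these data known. Alternatives were the replicate block, DESeq2 with and without it, library totals, other count filters, halved counts, fits of 4 libraries and leaving out each library.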

Additional observations from a re-analysis of the deposited data

How the results depend on the processing

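The 3 plasmid comparisons called 0 of the tested interferon response genes under each alternative run. With the replicate block the median log2 fold change of these genes was 0.072 for the fusion and 0.0075 for MXD3 against EV and 0.056 between the fusion and MXD3, and the block changed no call of a member. For STIM1::MXD3 against EV the median was 0.12 without the count filter, 0.013 over genes of at least 5 CPM and 0.092 to 0.16 with 1 library left out. For STIM1::MXD3 against MXD3 it was 0.043 by DESeq2 with the block and -0.027 to 0.16 with 1 library left out, the lowest without STIM1::MXD3 replicate 2. For MXD3 against EV it ran from -0.10 to 0.16 with 1 library left out. The sign of EIF2AK2 for STIM1::MXD3 against EV turned to 0.050 without STIM1::MXD3 replicate 2 (from -0.30 to 0.050 with 1 library left out), and that of IRF9 for STIM1::MXD3 against MXD3 to 0.19 without MXD3 replicate 2 and 0.0080 without STIM1::MXD3 replicate 1 (from -0.44 to 0.19). The causes were not tested.

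Between the replicate numbers fewer genes of the list were called with 1 library left out, fewest without a STIM1::MXD3 library. The calls over all genes fell in the same way, so this is not particular to the list. Of the other checks on named genes, 297 kept direction and side of the threshold, 25 lost a call and 9 gained one. Over all genes, the calls of the fusion and of MXD3 against EV, and of the fusion against MXD3, were 1, 1 and 0 by edgeR, 3, 45 and 1 with the block, 3, 3 and 1 by DESeq2 and 19, 238 and 5 by DESeq2 with the block. Calls between the replicate numbers numbered 4499, and 2580 to 4424 with 1 library left out. Without the count filter STIM1::MXD3 against EV had 2 calls and the fusion against MXD3 had 1, and without MXD3 replicate 2 MXD3 against EV had 2. Leaving out HLA-B, added after the data were seen, moved no median by more than the spread between pairs. With 2 libraries per group, replication limits what could be seen. Of the 44 genes, 12 were hardly counted and not tested, among them IFIT5, MX1, OAS1, OAS2 and OASL. HLA-C, TAP1, PSMB8 and PSMB9, also among the 12, lie in the stretch from TRIM27 to DAXX, and their zeros are not read as absent RNA.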
